A study of Mus musculus with 70 samples.

Results

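The collagen genes are described here across 70 mouse libraries in 24 groups. Members were taken by symbol alone, as every gene named Col followed by a number, the letter a and a second number, which gave 44 of the 34677 genes with a TPM (transcript abundance scaled to a fixed total per library) value. The adult groups were 18 brain regions punched from frozen sections of male C57BL/6NTac mice (C57BL/6 in the labels) at P56, in 57 libraries. They were ACA (anterior cingulate area), FRP (frontal pole) and ENT (entorhinal area) in the cortex, ACB (nucleus accumbens), VTA (ventral tegmental area), 5 hypothalamic nuclei (ARH, arcuate; DMH, dorsomedial; LHA, lateral; PVH, paraventricular; VMH, ventromedial), the hindbrain nuclei PB (parabrachial), NTS (solitary tract) and DVC (dorsal vagal complex), CBN (cerebellar nuclei), and 4 regions of cerebellar cortex, CENT2 (central lobule II), CUL4-5 (culmen), FL (flocculus) and UVU (uvula). The embryonic groups, from C57BL/6NTac embryos at E14.5, were F (forebrain), M (midbrain), H (hindbrain) and THy-PHy (terminal and peduncular hypothalamus), in 9 libraries, and 2 clones of C57BL/6 mouse embryonic stem cells (mESC), B6-1 and B6-2, gave 2 libraries each. No mouse carried an engineered allele or had a treatment. Groups had 2 to 4 libraries, and F had 1. An adult library pooled punches of several mice, apart from 1 ACB library made from 1 mouse, and libraries of different regions could share mice. The mESC had been grown on mouse embryonic fibroblast feeders and then passaged on gelatin in medium conditioned by such cells, and each line was 1 clone.

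Collagens are secreted or membrane-bound proteins in which 3 chains wind into a triple helix. Fibrillar collagens (types I, II, III, V, XI, XXIV and XXVII) form the fibrils of connective tissue and cartilage, type IV chains form the sheet of basement membranes, and types XV and XVIII sit in or beside those membranes. FACIT collagens (such as IX, XII, XVI and XIX) attach to fibrils, type VI forms beaded filaments, and types XIII, XVII, XXIII and XXV span the cell membrane. In brain tissue, the fibrillar types I and III belong to fibroblasts of the meninges and of large vessels, and type IV to the basement membrane of blood vessels. A few others, such as Col25a1 and Col19a1, are known from neurons. The 44 members were placed in 6 classes by where their transcripts are known to be made: fibroblast (11 genes), vascular (4), neuronal (4), tanycyte (1, Col23a1; tanycytes are the ependymal cells that line the floor of the ventricle below the thalamus), cartilage (6) and other (18). These classes are labels from prior knowledge, and the values below show where they held and where they did not.

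The total of estimated counts per library was 13409041 to 20647884 in adult libraries, 9074581 to 22229582 in embryonic and 12985081 to 18501667 in mESC libraries. Several libraries stood apart from their group. VTA replicate 1 had 39.6% of its TPM on mitochondrial genes and H replicate 1 had 22.6%, against medians of 7.71% for adult and 6.10% for embryonic libraries. H replicate 1 also carried cartilage transcripts, with Cnmd at 278 TPM against 20.6 and 43.2 in the other H libraries and Matn1 at 48.9 against 1.68 and 8.65. NTS replicate 1 had the choroid plexus transcript Ttr at 10330 TPM against 2.47 to 10.7 in the other NTS libraries. Ttr was also at 2029 TPM in UVU replicate 1 against 6.65 and 0.595 in the other UVU libraries. In M it was at 1614 TPM in replicate 2 and 18.8 in replicate 1, and in FL it ran from 30.2 to 2961 TPM. ARH libraries held Cga, a hormone gene of the pituitary, at 67.3 to 93.7 TPM, while the other hypothalamic libraries had at most 0.47. In tissue punches, fewer cells of a type and less RNA per cell cannot be told apart, and nothing in the labels separates replicate animals within a pool, so p-values measure only the spread between these pools or cultures.

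All but 1 of the 44 members reached a mean of 1 TPM in at least 1 adult region. The exception was Col6a6, a minor chain of type VI, whose highest regional mean was 0.470 TPM, in DMH. In the adult brain 19 members reached that level in all 18 regions. The number per region ran from 27 in VTA to 36 in CBN, and each mESC line had 18. The highest group was embryonic for 23 members, adult for 20 and mESC for 1. Every member passed the filter on low counts. In the fit over all genes (edgeR's quasi-likelihood test with Benjamini-Hochberg adjustment over 19980 genes, used for every adjusted p below unless another tool is named), all 44 varied over the 18 adult regions at an adjusted p under 0.05, where 80.9% of all genes did. For single comparisons a gene was called when its adjusted p was under 0.05 and its fold change above 1 on the log2 scale. Over the 18 comparisons of 1 region with the mean of the other 17, members gave 141 calls higher, against 6.53% of all gene and region pairs, and 115 calls lower, against 4.33%.

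Taken region by region, with the share of all genes called in the same direction in brackets, the cortical and basal regions had more members lower than higher. They were 6 higher (8.07%) and 16 lower (7.59%) in ACA, 7 (7.46%) and 10 (5.22%) in FRP, 5 (7.52%) and 10 (5.75%) in ENT, 6 (7.30%) and 13 (5.49%) in ACB and 4 (6.89%) and 9 (3.65%) in VTA. In ENT the higher members were led by Col10a1 and Col23a1, and in VTA by Col11a1 and Col25a1. ARH had the most members higher, 20 (8.93%), with 3 lower (3.59%). The other hypothalamic nuclei had 7 higher (5.68%) and 5 lower (1.56%) in DMH, 2 (3.36%) and 4 (1.60%) in LHA, 5 (3.73%) and 3 (1.28%) in PVH and 4 (6.02%) and 5 (2.69%) in VMH. In the hindbrain nuclei few were called, with 5 higher (4.17%) and 1 lower (1.68%) in PB, 6 (5.36%) and 2 (2.60%) in NTS and 2 (4.55%) and 1 (1.85%) in DVC. The cerebellar regions had 14 higher (7.86%) and 2 lower (2.88%) in CBN, 11 (8.31%) and 10 (7.02%) in CENT2, 14 (8.06%) and 11 (10.3%) in CUL4-5, 15 (7.01%) and 2 (4.55%) in FL and 8 (7.25%) and 8 (8.67%) in UVU. Col25a1 was among the lower members of all 5 cerebellar regions.

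Some of these counts rested on 1 library. Without NTS replicate 1 the NTS counts were 2 higher and 5 lower, as Col4a3 (0.27), Col4a4 (0.66), Col8a1 (-0.85) and Col8a2 (-0.90) were no longer called. Without CUL4-5 replicate 1 the CUL4-5 count was 9 higher, with Col1a1, Col1a2, Col3a1, Col23a1 and Col4a6 lost, and without VTA replicate 1 the VTA count was 2 higher and 7 lower. The lower counts fell to 2 in LHA without LHA replicate 1 and to 2 in VMH without VMH replicate 1. In PB they were 3 without PB replicate 1 and 2 without PB replicate 3. They fell to 1 in CBN without CBN replicate 2 or 3, in NTS without NTS replicate 2 or 4, and in FL without FL replicate 2, FL replicate 3, CUL4-5 replicate 4 or UVU replicate 1.

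**Figure D1:**
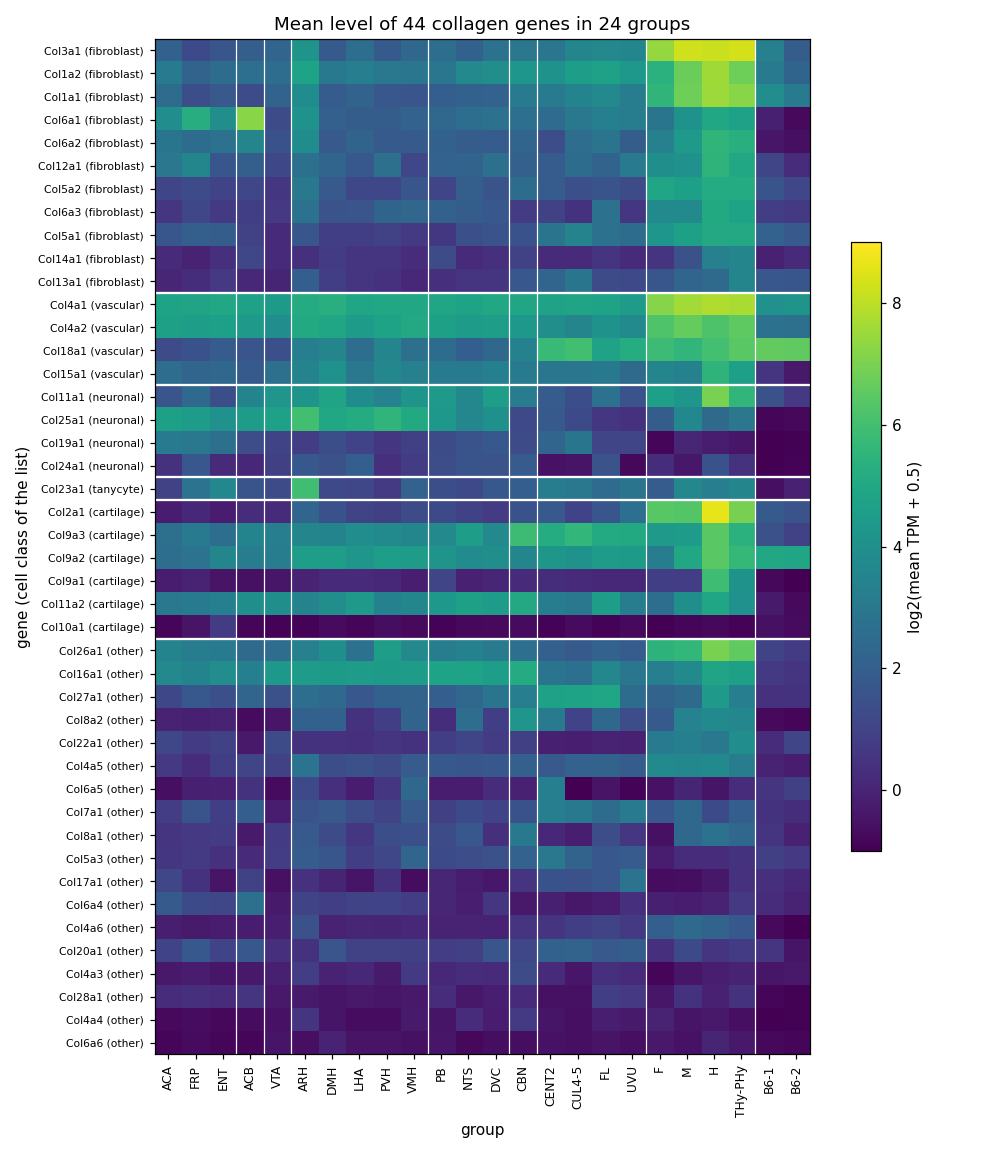
Mean level of each of the 44 collagen genes (rows, ordered by class and then by highest level) in each of the 24 groups (columns), as log2 of the mean TPM plus 0.5. The right-hand block of embryonic groups is bright for the fibroblast and vascular classes, ACB is bright for Col6a1 at 150.3 TPM and ARH for Col23a1 at 59.9 TPM.

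Col1a1 and Col1a2, the chains of type I collagen, and Col3a1, the type III chain, were the leading fibroblast collagens. Their adult region means were highest in ARH, followed by FL. The lowest was in ACB for Col1a1 and in FRP for Col1a2 and Col3a1. In cortex Col1a2 (-1.02) and Col3a1 (-1.11) were called lower, and Col1a1 (-0.82) was not called. The cortex call of Col1a2 was lost without any 1 of 8 libraries and that of Col3a1 without ACA replicate 2. Col1a1 stood at 19.1, 11.2 and 11.4 TPM in ARH and at 8.72 to 14.1 TPM in the 4 FL libraries. Its level was 1.90, 1.98 and 2.16 TPM in ACB and 1.94 to 4.60 TPM in the libraries of the other hypothalamic nuclei. The ARH libraries therefore lay wholly above the other adult hypothalamic libraries. Col3a1 had the same order at the top, with 20.9, 18.5 and 13.6 TPM in ARH against 1.75 to 6.96 TPM in DMH, LHA, PVH and VMH. Col1a2 was at 34.0, 26.6 and 20.6 TPM in ARH and at 6.25 to 11.2 TPM in the other nuclei.

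Across the 18 adult region means, these chains moved together, and they moved with markers of meningeal fibroblasts. The correlation of log2(TPM + 0.5) was 0.912 between Col1a1 and Col1a2, 0.903 between Col1a1 and Col3a1 and 0.909 between Col1a2 and Col3a1 (Pearson's r, n = 18 regions that share mice). The 12 meningeal fibroblast markers were Dcn, Lum, Mgp, Ogn, Islr, Fmod, Aldh1a2, Slc6a13, Slc22a6, Igf2, Foxc1 and Lama1. With the mean log2(TPM + 0.5) of these markers, r was 0.919 for Col1a1 (Spearman's rho 0.895), 0.842 for Col3a1 and 0.818 for Col1a2. Over the whole fibroblast class the same r ran from -0.159 for Col14a1, a FACIT collagen of tendon and skin, to that of Col1a1, with a median of 0.485. The class was thus not of one kind. Col6a1, Col6a3, Col12a1 and Col14a1 all lay between -0.159 and 0.139. The 5 genes most like Col1a1 among 13922 genes were Serping1 (0.921), Slc6a20a (0.919), Col1a2, Ifitm2 (0.907) and Slc6a12 (0.904).

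The comparison of ARH with the other 4 hypothalamic nuclei showed how far these collagens differ within 1 brain area. In ARH 15 members were higher, against 4.71% of all genes, and 0 were lower, against 2.19%. DESeq2 also gave 0 lower. Under edgeR 2 members had a negative difference at an adjusted p under 0.05 and fell short only of the fold limit. They were Col20a1 (-0.78, adjusted p = 0.00682) and Col26a1 (-0.84, adjusted p = 0.0144). Of the 11 fibroblast collagens 9 were higher, with a median log2 fold change of 1.76 over the class, where the median of all genes was 0.02. They included Col3a1 (2.31 ± 0.32 SE), Col6a1 (2.18 ± 0.26), Col1a1 (2.07 ± 0.32, adjusted p = 1.29e-06) and Col6a2 (2.05 ± 0.27), and the remaining fibroblast members, Col12a1 and Col14a1, were not called. The calls of Col5a1 (1.12) and Col6a3 (1.08) were each lost without 1 library, ARH replicate 2 at 0.94 and VMH replicate 2 at 1.00. None of the 4 vascular and none of the 4 neuronal members was called, with Col4a1 at 0.20 ± 0.12 (adjusted p = 0.238) and Col25a1 at 0.71 ± 0.34 (adjusted p = 0.13). The less common type IV chains were higher together: Col4a4 by 2.07 ± 0.36, Col4a6 by 2.06 ± 0.27, Col4a3 by 1.69 ± 0.36 and Col4a5 by 1.47 ± 0.17.

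Markers of several cell types moved with ARH. Of the 12 meningeal fibroblast markers 11 were higher. Their sum was 303 to 567 TPM in ARH libraries against 57.5 to 174 TPM in the other adult hypothalamic libraries. Dcn was at 75.5, 69.5 and 56.2 TPM in ARH and at 6.09 to 18.3 TPM in the other nuclei. All 10 tanycyte markers were higher, as were 4 of 7 tested pituitary markers, while 5 of 5 oligodendrocyte markers were lower. None of the 10 endothelial and none of the 10 mural markers (mural cells are pericytes and vascular smooth muscle) was called, which is also where the vascular collagens stood. The part of each cell type in the collagen differences was not tested.

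Col6a1, a chain of the beaded filaments of type VI collagen, had the largest adult level of any member, and it was in the nucleus accumbens. Its ACB libraries were at 167, 146 and 138 TPM. FRP followed at 51.2, 12.3 and 46.4 TPM, a spread in which replicate 2 sat with the 13.7 to 15.3 TPM of ACA and ENT. No other adult library exceeded 20.8 TPM, and the lowest region, VTA, was at 1.18 to 2.99 TPM. The ACB libraries thus overlapped no other library of the series, embryonic ones included, whose highest was 42.1 TPM in H. Against the mean of the other 17 regions Col6a1 was higher in ACB by 4.48 ± 0.16 on the log2 scale (adjusted p = 6.45e-30). It was also higher in FRP, by 2.34 ± 0.19.

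The other type VI chains did not follow Col6a1 to the same extent. Col6a2, its neighbour on chromosome 10 and its partner in the type VI trimer, was at 14.8, 9.07 and 9.52 TPM in ACB, higher by 1.39 ± 0.23, and Col6a4 at 7.68, 6.46 and 3.99 TPM, higher by 2.74 ± 0.22. Col6a3, the remaining chain of the classical trimer, gave -0.72 ± 0.33 (adjusted p = 0.0691) and was not called. Over the 18 regions r was 0.766 between Col6a1 and Col6a2 and -0.201 between Col6a1 and Col6a3. Col1a1 (-1.19 ± 0.38) and Col3a1 (-1.26 ± 0.39) were among the members lower in ACB. Meningeal fibroblast markers were lower there for 8 of 12 and higher for 0, and their sum was 48.5 to 60.5 TPM.

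**Figure D2:**
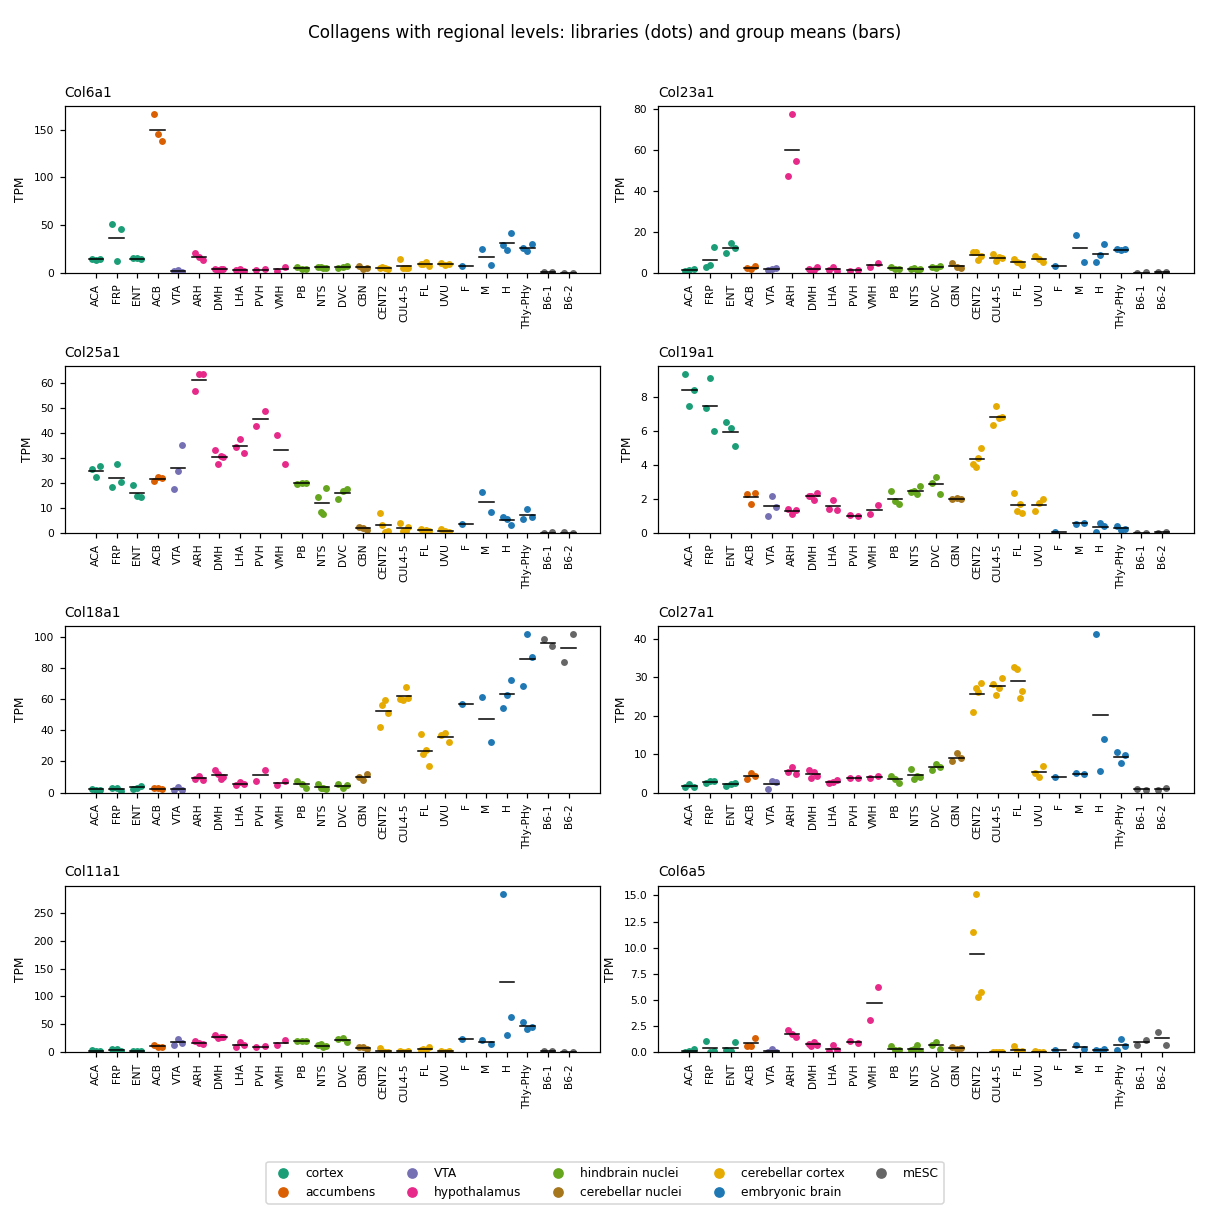
TPM of 8 collagen genes on linear axes in every library (dots, coloured by brain area) with group means (bars), 24 groups along each axis. Col6a1 peaks in ACB at 138 to 167 TPM and Col23a1 in ARH at 47.3 to 77.8 TPM, Col25a1 is high in hypothalamus and near 0 in cerebellar cortex, and Col27a1 is high in CENT2, CUL4-5 and FL and not in UVU.

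Col4a1 and Col4a2 encode the main chains of the vascular basement membrane, which join as a trimer of 2 Col4a1 chains and 1 Col4a2 chain. Their genes lie head to head on chromosome 8 of GRCm38, Col4a1 at chr8:11198423-11312826 on the minus strand and Col4a2 at chr8:11312805-11449287 on the plus strand, so that their annotated starts are 21 bases apart. The stretch that holds both starts is shown because the levels of the pair are compared below. The windows from 250 bases before to 50 bases after each start (RefSeq, build GRCm38.p6) are given 5′ to 3′ on each gene's own strand, Col4a1 at chr8:11312777-11313076 and Col4a2 at chr8:11312555-11312854. Capitals mark the letters CCAAT and GGGCGG on either strand.
Col4a1: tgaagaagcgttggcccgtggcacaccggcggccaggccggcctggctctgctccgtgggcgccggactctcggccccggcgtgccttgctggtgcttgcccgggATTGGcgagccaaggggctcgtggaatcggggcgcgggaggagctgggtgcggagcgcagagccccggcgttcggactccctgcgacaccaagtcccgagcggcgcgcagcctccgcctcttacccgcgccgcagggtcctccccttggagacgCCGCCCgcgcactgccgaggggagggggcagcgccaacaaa
Col4a2: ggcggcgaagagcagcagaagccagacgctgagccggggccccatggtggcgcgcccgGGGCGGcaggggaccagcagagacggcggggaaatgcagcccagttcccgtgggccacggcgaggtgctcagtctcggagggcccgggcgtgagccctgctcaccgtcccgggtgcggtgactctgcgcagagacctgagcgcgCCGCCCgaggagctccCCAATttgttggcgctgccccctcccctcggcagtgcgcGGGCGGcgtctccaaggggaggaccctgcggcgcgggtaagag
The windows share 78 bases, chr8:11312777-11312854, read on opposite strands. The Col4a1 window held 1 CCAAT and 1 GGGCGG match at 74.0% GC, and the Col4a2 window 1 and 3 at 73.7% GC. Of all 32851 promoter windows of the same length 37.4% held CCAAT and 35.7% held GGGCGG, and of 38 windows for 35 of the members 13 and 23 did. These matches describe the letters only.

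Col4a1 was the steadiest member in the adult brain. Its libraries ran from 15.3 TPM in VTA replicate 1 to 39.1 TPM in DMH, and the highest region mean was 1.35 times the median region. Col4a2 ran from 6.88 TPM in VTA replicate 1 to 34.0 TPM in DMH. In the comparisons of single regions Col4a1 was called in none and Col4a2 in 1, CUL4-5, where it was lower by 1.17 ± 0.12 on the log2 scale (adjusted p = 7.95e-12). There Col4a2 stood at 15.5, 9.70, 9.47 and 9.91 TPM while Col4a1 stood at 33.9, 28.1, 28.8 and 21.9 TPM. The ratio of Col4a2 to Col4a1 was 0.396 ± 0.068 in CUL4-5 (SD, n = 4) and 0.540 to 0.632 on average in the other cerebellar cortex regions. In the 14 other adult regions its mean lay between 0.641 and 1.06. Over the 18 regions r was 0.726 between the chains. The other head-to-head type IV pairs had 0.886 (Col4a3 and Col4a4, starts 72 bases apart) and 0.857 (Col4a5 and Col4a6, 1309 bases apart).

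Levels of the vascular collagens did not follow the endothelial markers across regions. With the sum of 10 endothelial markers r was -0.193 for Col4a1, -0.404 for Col4a2, 0.192 for Col15a1 and 0.284 for Col18a1 (n = 18). The genes most like Col4a1 were Ran (0.873), Fam181a (0.827) and Rab8b (0.813). Col15a1, a multiplexin collagen beside the basement membrane, was highest in DMH at 13.7 to 19.4 TPM and was called higher in PVH (1.28 ± 0.21), where its libraries were at 13.6 and 9.92 TPM.

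Col18a1, the multiplexin whose end fragment is endostatin, went apart from the other vascular members. In cerebellar cortex it stood at 42.3 to 59.4 TPM in CENT2, 59.1 to 67.5 in CUL4-5, 17.3 to 37.8 in FL and 32.8 to 38.3 in UVU. No other adult library exceeded 14.8 TPM, and the cortical libraries were at 1.22 to 4.12 TPM. The groups did not overlap. The log2 difference was 3.25 ± 0.07 for cerebellar cortex (adjusted p = 1.73e-39) and -2.05 ± 0.12 for cerebral cortex. Its r was 0.888 with the mean log2 level of the astrocyte markers (rho 0.843), a list that includes the glial genes Aldoc and Slc1a3. With Col4a1 it was 0.000.

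The neuronal class held collagens with unlike maps. Over its 4 members r with the neuron markers ran from -0.681 to 0.765, with a median of -0.296 (18 adult region means). Only for Col19a1 was the neuron list the one with the highest r. For Col25a1 (0.650), Col24a1 (0.702) and Col11a1 (0.772) it was the oligodendrocyte precursor list. Col25a1, a membrane collagen known from neurons and first found in amyloid plaques, was highest in the hypothalamus. It stood at 56.9, 63.8 and 63.7 TPM in ARH, 42.9 and 48.7 in PVH, 32.1 to 37.5 in LHA, 39.2 and 27.4 in VMH and 27.7 to 33.1 in DMH. Cortex, ACB, PB and VTA libraries lay between 14.2 and 35.4 TPM. In cerebellar cortex it was at most 8.03 TPM, in CENT2 replicate 1, and under 4 TPM in every other library. Adult hypothalamic and cerebellar libraries therefore did not overlap. Hypothalamus was higher by 2.40 ± 0.16 and cerebellar cortex lower by 4.09 ± 0.23 on the log2 scale (adjusted p = 1.77e-18 and 8.52e-22). The gene most like it was Scn3a, a sodium channel subunit, with r = 0.965, followed by Cbarp (0.953), Tmsb10 (0.950), Slit1 (0.949) and Bend4 (0.948).

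Col11a1, a fibrillar chain best known from cartilage, was placed in the neuronal class for its known expression in neurons. Its highest adult region means were in DMH (libraries at 26.6 to 30.5 TPM), DVC (19.3 to 26.2) and PB (19.7 to 20.6), single libraries of VTA (23.2) and VMH (21.6) lay above those of PB, and cortical libraries were at 1.83 to 5.56 TPM. It was higher in hypothalamus (1.21 ± 0.15) and in hindbrain nuclei (1.36 ± 0.16), and lower in cortex (-1.57 ± 0.22) and cerebellar cortex (-1.95 ± 0.18). Its r was 0.772 with oligodendrocyte precursor markers and -0.681 with the 5 neuron markers. Its nearest genes were Bend7 (0.925) and Pold4 (0.920).

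Col19a1, a FACIT collagen known from interneurons, had a cortical map with a second site in the cerebellum. ACA was at 9.35, 7.45 and 8.40 TPM, FRP at 7.31, 9.10 and 5.97, ENT at 6.54, 6.17 and 5.11 and CUL4-5 at 6.35 to 7.45. CENT2 followed at 3.85 to 4.95 TPM, and no other adult library exceeded 3.27 TPM. Cortex was higher by 1.96 ± 0.09 and CUL4-5 by 1.33 ± 0.13. FL and UVU, also cerebellar cortex, were at 1.15 to 2.36 TPM, so that these cerebellar lobules did not overlap. Its r with the neuron markers was 0.765, and Pak1, a kinase of the neuronal cytoskeleton, was its nearest gene (0.878).

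Col24a1, a fibrillar collagen of low level, split the cerebellar cortex the other way. FL was at 0.754, 2.22, 3.67 and 3.28 TPM, higher than the other regions by 1.22 ± 0.31, whereas UVU was at 0.0832, 0 and 0.155 TPM, with 4, 0 and 6 counts. CENT2 and CUL4-5 stayed at or below 0.504 TPM. Its highest adult mean was 3.48 TPM in LHA, and without FL replicate 4 the call in FL was lost at 0.97.

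Col23a1, a membrane collagen, had by far its highest level in ARH, at 47.3, 77.8 and 54.6 TPM (59.9 ± 15.9 SD, n = 3). The libraries of the other 4 hypothalamic nuclei were at 0.876 to 5.01 TPM. The difference within the hypothalamus was 4.90 ± 0.23 on the log2 scale (adjusted p = 1.45e-22), the largest of any member there. Rax, the transcription factor that marks tanycytes, was at 11.1, 22.6 and 16.5 TPM in ARH and at most 0.767 in the other nuclei, and Gpr50 was at 53.8 to 69.5 TPM in ARH against 0.994 to 40.4 in the others. Col23a1 was not limited to regions with those markers. ENT was second at 9.72, 14.8 and 12.1 TPM, higher by 1.93 ± 0.19, with Rax at 0 to 0.077 TPM, and cerebellar cortex was at 3.76 to 10.2 TPM, where Rax did not exceed 0.0972. In THy-PHy, which held Rax at 8.62 to 30.3 TPM, Col23a1 was at 10.99 to 11.57 TPM.

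The summed tanycyte list did not single out ARH. Its sum was 205 to 280 TPM in ARH but 509 to 547 in ACB. The correlations used the mean log2(TPM + 0.5) of a list and not its sum. On that score r with Col23a1 over the regions was 0.522 (rho 0.057) for the tanycyte list and 0.677 for the meningeal list. The nearest genes to Col23a1 were Cks1b (0.875), Lypd2 (0.841), Cpxm1 (0.826), Emilin1 (0.794) and the pituitary hormone gene Cga (0.783). Meningeal, tanycyte and pituitary markers were all high in the same 3 ARH libraries, and their separate parts in the level of Col23a1 cannot be told apart.

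Collagens of cartilage differed widely in level across the adult brain. Col9a3, a chain of the FACIT type IX, stood at 82.4, 37.4 and 51.4 TPM in CBN, at 40.6 to 53.7 in CUL4-5 and at 30.1 to 40.9 in CENT2, while cortical libraries were at 4.01 to 9.07. CBN was higher by 2.10 ± 0.23 and cerebellar cortex by 1.57 ± 0.14. Ttr stood at 12240, 3438 and 5225 TPM in the CBN libraries in the same order, and in NTS Col9a3 was at 57.6 TPM in replicate 1 and 9.44 to 16.6 TPM in the others. The part of choroid plexus RNA was not tested. In CENT2 Ttr was at or below 3.10 TPM and Folr1, another choroid plexus marker, at 2.98 to 13.4 TPM, and Col9a3 was at 30.1 TPM or more. Its partner Col9a2 had another order, highest in DMH (21.8 to 26.5 TPM), PVH (21.5 and 24.7) and ARH (20.9 to 25.5), and r between the chains was 0.393. Col9a1, the remaining chain, stayed at or below 2.04 TPM in every adult library, and its only call higher was in PB (1.81 ± 0.36), at 1.59, 2.04 and 1.25 TPM.

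The other cartilage members were scarce, apart from Col11a2. Col2a1, the main fibrillar chain of cartilage, did not exceed 6.24 TPM in an adult library, with UVU (6.24, 6.02 and 5.23 TPM) and ARH (3.56, 3.48 and 6.02) highest. Col11a2, a chain of type XI fibrils, was highest in CBN with a mean of 32.6 TPM and had an r of 0.894 with oligodendrocyte markers. Col10a1, the collagen of hypertrophic cartilage, was near 0 except in ENT, at 1.59, 0.738 and 1.19 TPM against at most 0.299 in any other adult library, a difference of 4.05 ± 0.37 (adjusted p = 1.69e-13). The cartilage markers Acan, Matn1, Matn4, Cnmd and Hapln1 together summed to 17.7 to 23.9 TPM in ENT against 13.7 to 21.7 TPM in the ACA and FRP libraries.

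Members with no fixed cell class included those with the narrowest maps within the cerebellum. Col27a1, a fibrillar collagen, was at 20.96 to 28.48 TPM in CENT2, 25.4 to 29.9 in CUL4-5 and 24.7 to 32.7 in FL. UVU, of the same cerebellar cortex, was at 5.00, 4.18 and 6.91 TPM, and CBN at 8.11 to 10.3. FL was higher than the other regions by 2.56 ± 0.18, while UVU gave -0.11 ± 0.28 (adjusted p = 0.822). Col17a1, the hemidesmosome collagen of skin, had the reverse: UVU was at 8.26, 6.08 and 5.13 TPM, above every other adult library, of which the highest was 3.96 TPM in FL, and was higher by 3.56 ± 0.23.

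Col6a5, a type VI chain, separated neighbouring lobules most. CENT2 stood at 11.5, 15.2, 5.33 and 5.74 TPM from 671, 737, 242 and 339 counts. CUL4-5 had 0, 0, 0 and 2 counts and UVU 7, 0 and 0. VMH was second at 3.10 and 6.29 TPM. The CENT2 difference was 4.73 ± 0.24 and that of VMH 3.75 ± 0.34 on the log2 scale, and no other adult library exceeded 2.11 TPM.

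Col8a2 and Col8a1, the chains of the network-forming type VIII, were highest in CBN. Col8a2 stood at 32.8, 8.04 and 12.9 TPM in CBN (4.01 ± 0.38), at 11.1, 12.6, 3.36 and 4.74 in CENT2 and at 19.4, 0.415, 1.11 and 0.602 in NTS. The NTS call of 2.16 ± 0.41 rested on replicate 1, and without it the difference was -0.90. Ttr moved with these values, at 12240, 3438 and 5225 TPM in CBN and 10330, 10.7, 3.85 and 2.47 TPM in the NTS libraries in the same order. Ttr was at or below 3.10 TPM in CENT2, where Col8a2 reached 12.6 TPM. Folr1, another choroid plexus marker, was at 13.4, 13.3, 2.98 and 5.77 TPM in the CENT2 libraries in the order of Col8a2 above. The markers Kl, Kcne2 and Aqp1 did not exceed 1.29 TPM there. Across regions Col8a2 had r = 0.772 with the choroid plexus list, of which 10 of 10 markers were higher in CBN. Col8a1 behaved alike in NTS (8.95 TPM in replicate 1, 0.584 to 0.750 in the others). The part of choroid plexus RNA in the CBN and NTS calls was not tested.

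**Figure D3:**
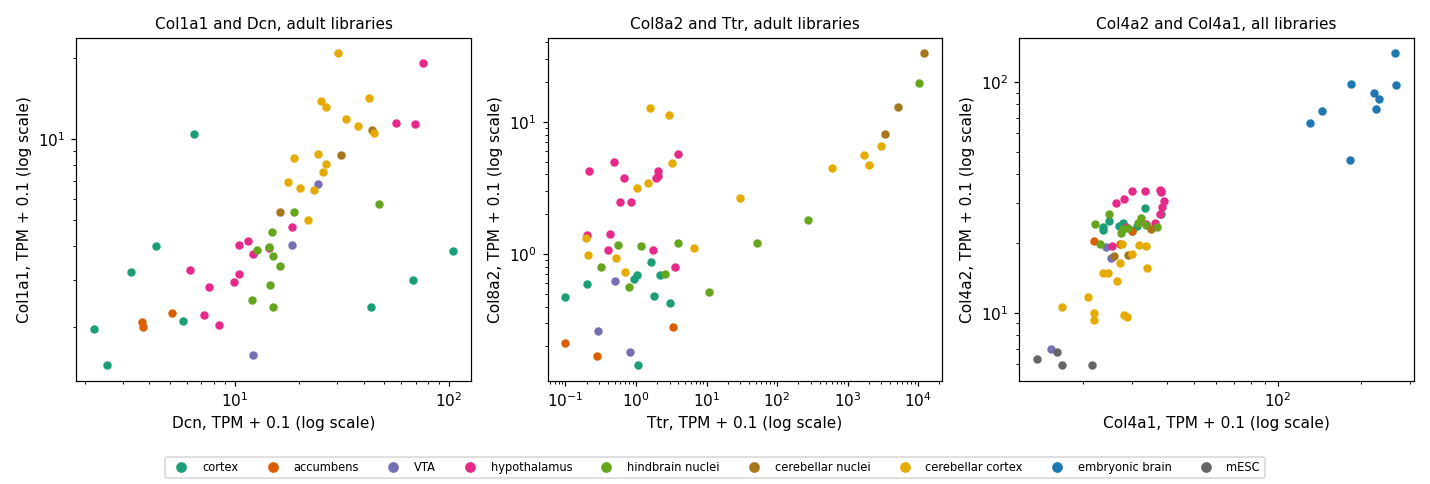
Library values on log axes of TPM plus 0.1, coloured by brain area: Col1a1 against the meningeal fibroblast gene Dcn and Col8a2 against the choroid plexus gene Ttr in the 57 adult libraries, and Col4a2 against Col4a1 in all 70. Col8a2 was at 8.04 TPM or more in the 3 CBN libraries and NTS replicate 1, all with Ttr of 3438 TPM or more, and also in 2 CENT2 libraries with little Ttr.

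Col16a1 and Col26a1 were the most abundant of the remaining members. Col16a1, a FACIT collagen, was at 34.0 to 36.7 TPM in CBN and 23.97 to 33.93 in NTS, and at 3.94 to 15.9 TPM in cerebellar cortex, which was lower by 1.52 ± 0.13. Col26a1 was highest in PVH at 23.1 and 22.8 TPM (1.66 ± 0.23). The other 11 members of this class had highest adult region means between 0.470 TPM (Col6a6) and 9.26 TPM (Col7a1, the anchoring fibril collagen, in CENT2).

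Of the broader areas, cerebellar cortex differed from the other adult regions in the most members. There 15 were higher (8.21% of all genes) and 9 lower (9.75%). The higher ones were led by Col18a1, Col17a1 (2.75 ± 0.16) and Col27a1 (2.17 ± 0.13) and held 5 of 11 fibroblast collagens, Col5a1 (1.82 ± 0.10), Col13a1 (1.62 ± 0.13), Col1a1 (1.23 ± 0.16), Col1a2 and Col3a1. The lower ones held 3 of the 4 neuronal members, Col25a1, Col24a1 and Col11a1. Col19a1 was not among them. Meningeal fibroblast markers were higher for 5 of 12 and lower for 0 and summed to 103 to 455 TPM in these libraries. FL had 9 of the 12 markers higher and choroid plexus markers higher for 9 of 10. The part of either was not tested.

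Cerebral cortex was the area with the most members lower. There 6 were higher (8.17% of all genes) and 15 lower (7.95%), and the lower ones were led by Col2a1 (-2.69 ± 0.36), Col8a2 (-2.35 ± 0.48) and Col18a1. Of the 6 higher, Col19a1, Col6a1 (1.67 ± 0.14), Col6a4 (1.13 ± 0.17, lost without ENT replicate 3), Col25a1 (1.12 ± 0.19) and Col10a1 (2.00 ± 0.37) were joined by Col22a1, whose summed counts miss part of its transcripts. On log2(TPM + 0.5) with limma Col22a1 gave 0.55 (adjusted p = 0.00365) and was under the fold limit. Oligodendrocyte markers were lower in cortex for 5 of 5.

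In hypothalamus 7 members were higher (6.11% of all genes) and 3 lower (2.74%). The higher ones were Col25a1, Col6a5 (2.17 ± 0.23), Col11a1, Col6a3 (1.21 ± 0.15), Col24a1 (1.05 ± 0.21), Col9a2 and Col26a1 (both 1.02 ± 0.12), so that 3 of the 4 neuronal members were among them. Col19a1 (-1.25 ± 0.10), Col17a1 (-1.81 ± 0.23) and Col6a1 (-1.10 ± 0.15) were lower. Without VMH replicate 1, Col6a1 was at -0.999 and not called. Without VMH replicate 2, Col24a1 fell below the fold limit at 0.97, and Col9a2 and Col26a1 did so without any 1 of 6 and 5 libraries. In hindbrain nuclei 2 were higher (5.17%), Col11a1 and Col24a1 (1.35 ± 0.22), and 1 lower (2.67%), Col17a1 (-1.28 ± 0.24).

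**Figure D4:**
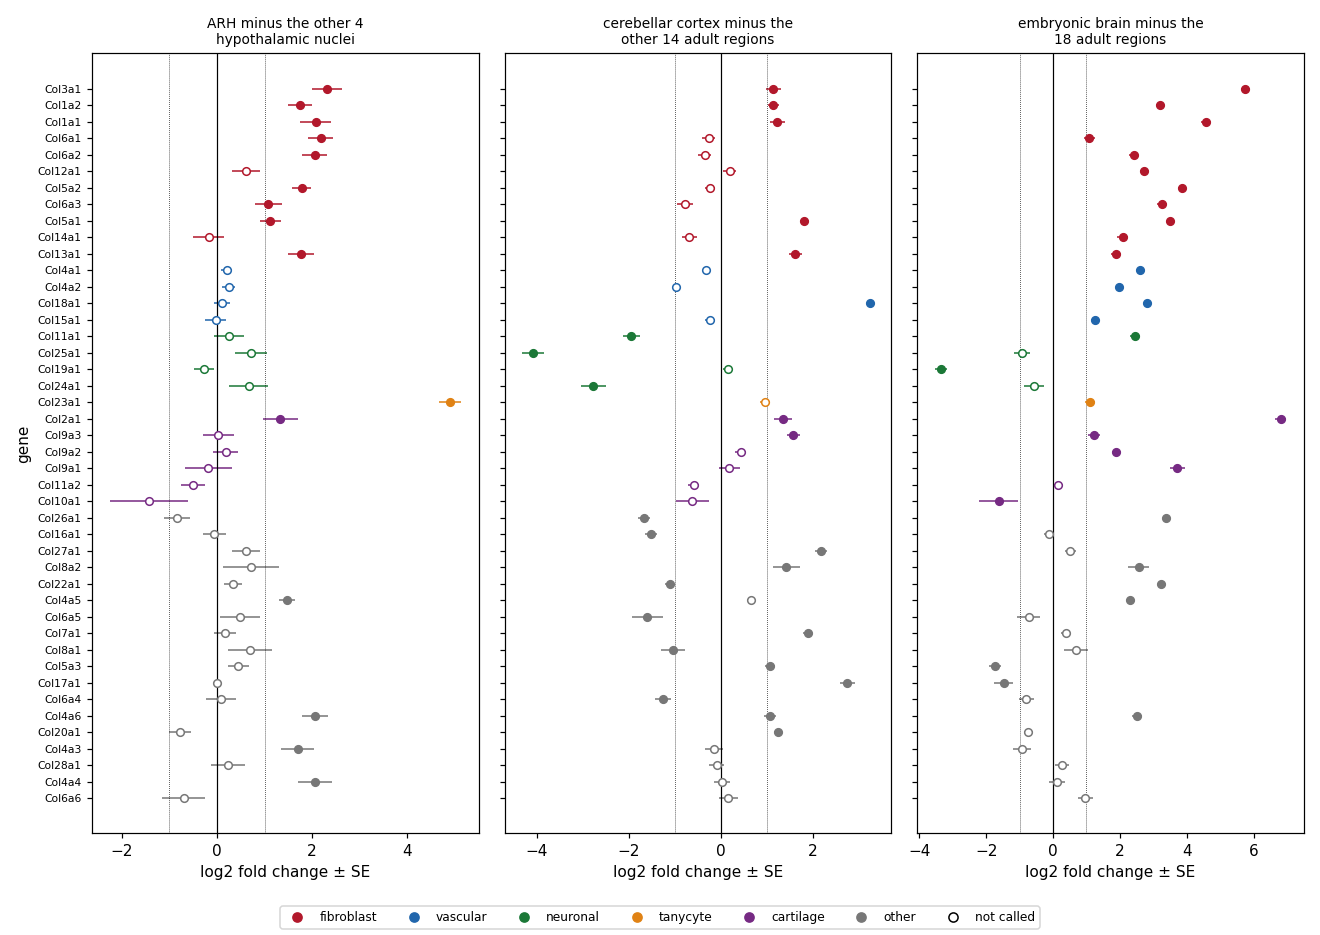
Log2 fold change with SE (edgeR) of each of the 44 collagen genes, coloured by class, for ARH against the other 4 hypothalamic nuclei, cerebellar cortex against the other 14 adult regions and embryonic brain against the 18 adult regions. Filled points were called, and dotted lines mark a log2 fold change of 1 in either direction. Fibroblast members lie to the right in the ARH and embryonic panels, and vascular members only in the embryonic one, apart from Col18a1 in the cerebellar panel.

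The embryonic brain had far more collagen transcript than the adult brain. The 44 members summed to 886 TPM in F, 781 and 1857 in M, 1318 to 3266 in H and 1503 to 1863 in THy-PHy, while no adult library exceeded 488 TPM. Against the adult regions 26 members were higher (17.8% of all genes) and 4 lower (19.9%), with a median log2 fold change of 1.57 over the 44 and 0.00 over all genes. All 11 fibroblast and all 4 vascular collagens were higher, as were 4 of 6 cartilage members. Without M replicate 1 the fibroblast member Col6a1 was not called (0.86), nor was Col23a1 (0.92). Stage cannot be told apart from the collection batches, since the study lists different batches for embryonic and adult samples.

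Col3a1, Col1a1 and Col5a2 led the fibroblast class. Col3a1 stood at 172 TPM in F, 523 and 102 in M, 223, 213 and 445 in H and 394, 293 and 285 in THy-PHy, against at most 20.9 TPM in the adult brain (5.76 ± 0.14, adjusted p = 6.24e-38). Col1a1 was higher by 4.58 ± 0.15 and Col5a2, a chain of the fibrillar type V, by 3.84 ± 0.09. The M libraries lay far apart for both Col3a1 and Col1a1 (173 and 46.9 TPM). Meningeal fibroblast markers were higher for 9 of 12 and lower for 1, Mgp. Their part was not tested.

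Col4a1 in the embryonic libraries was at 130 to 265 TPM and Col4a2 at 45.9 to 133 TPM, every one above every adult library (2.60 ± 0.06 and 1.97 ± 0.07). Col18a1 was higher by 2.82 ± 0.08 and Col15a1 by 1.26 ± 0.12. Of the endothelial markers 2 of 10 were higher (17.8% of all genes) and 3 lower (19.9%). Flt1, a VEGF receptor of endothelium, was at 5.92 to 9.18 TPM in embryonic and 14.9 to 35.6 TPM in adult libraries. Cldn5, another endothelial marker, overlapped at 8.57 to 56.4 and 9.48 to 77.1 TPM. Pdgfrb, 1 of the mural markers, went the other way, at 11.8 to 25.7 TPM in embryonic and 4.76 to 15.4 TPM in adult libraries. The part of vascular cells was not tested. The ratio of Col4a2 to Col4a1 was 0.319 to 0.518 on average in embryonic groups.

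Col2a1 had the largest difference of any member, 6.81 ± 0.16 (adjusted p = 2.92e-39). It stood at 83.9 TPM in F, 72.7 and 85.2 in M, 942, 73.3 and 185 in H and 158, 84.8 and 131 in THy-PHy. The H libraries spanned a wide range for Col9a1 too, at 131, 7.09 and 36.3 TPM, in the order of their cartilage markers, whose sum ran from 33.9 to 545 TPM. In F and M these markers (Acan, Matn1, Matn4, Cnmd and Hapln1) summed to 3.82 to 5.24 TPM, while Col2a1 there was at 72.7 TPM or more. The sum was higher in the adult cortex, where Matn4 was at 4.86 to 10.4 TPM and Hapln1 at 4.455 to 11.4 TPM. Col26a1 (3.39 ± 0.11) and the type IV chains Col4a6 (2.51 ± 0.14) and Col4a5 (2.29 ± 0.09) were also higher. Without VTA replicate 1, H replicate 1 and NTS replicate 1 together, 26 members were higher and 5 lower.

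The 4 members lower in the embryo were Col19a1, Col5a3, Col10a1 and Col17a1. Col19a1 stood at 0.0529 to 0.593 TPM in embryonic libraries against 0.971 to 9.35 in adult ones (-3.35 ± 0.18). The neuronal class was split, with Col11a1 higher (2.45 ± 0.16), Col19a1 lower and Col25a1 and Col24a1 not called. Col10a1 had 0 to 4 counts per embryonic library, and its call was lost without ARH replicate 2 or without F.

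**Figure D5:**
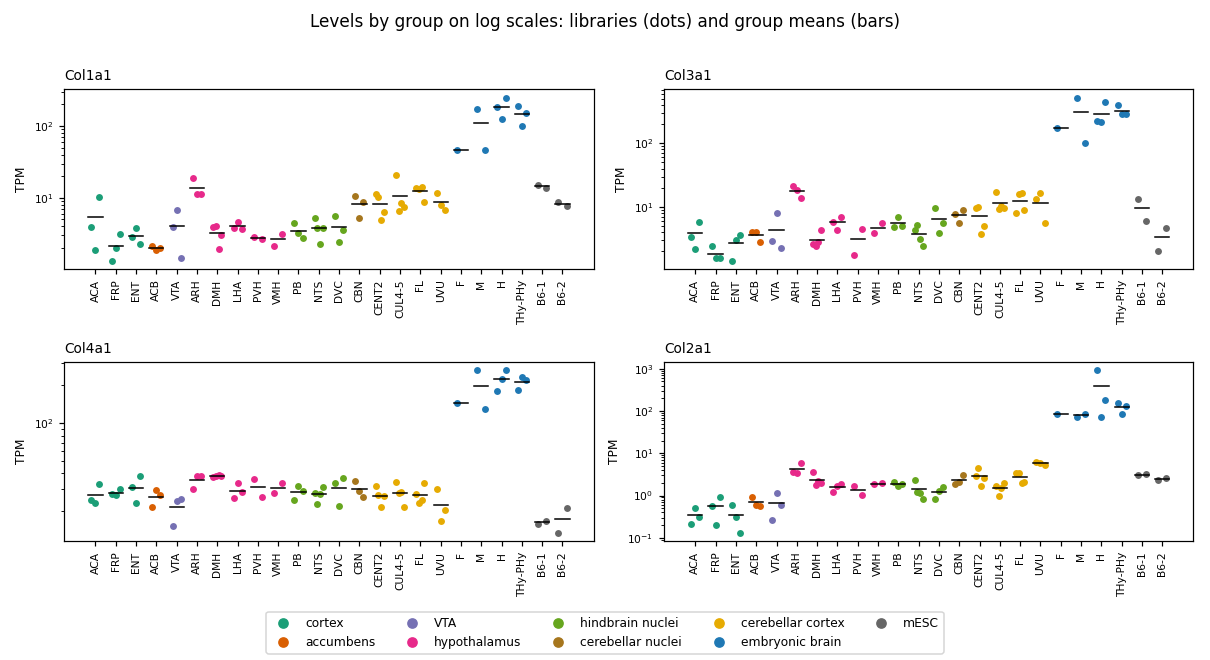
TPM on log axes of Col1a1, Col3a1, Col4a1 and Col2a1 in every library (dots) with group means (bars) across the 24 groups. All 9 embryonic libraries lie above all adult libraries for each gene, Col4a1 is nearly level over the adult regions, and H spreads from 73.3 to 942 TPM for Col2a1.

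The mESC lines held few collagens. Against the embryonic brain 35 members were lower (29.0% of all genes) and 5 higher (26.8%), with a median log2 fold change of -3.66 over the 44. The vascular class made up 55.4% and 62.2% of collagen TPM in B6-1 and B6-2, mostly through Col18a1, at 98.3, 93.8, 83.6 and 102 TPM. Col18a1 was higher than in the embryonic brain by 1.10 ± 0.15 (adjusted p = 2.71e-09), while Col4a1 was at 13.5 to 21.4 TPM and Col4a2 at 5.83 to 6.68 TPM. Col9a2 was at 27.2 to 32.2 TPM and did not differ beyond its error (-0.01 ± 0.25), unlike its partners Col9a1 (0 to 0.104 TPM) and Col9a3 (0.845 to 2.70 TPM). The other members higher were Col5a3 (1.28 ± 0.23), Col6a5, Col17a1 and Col10a1. None of them exceeded 1.96 TPM in an mESC library, and Col10a1 had 3 to 7 counts there.

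The lines differed in the fibrillar collagens that fibroblasts make. Col1a1 was at 15.2 and 13.8 TPM in B6-1 and at 8.79 and 7.61 TPM in B6-2, and Col3a1 at 13.2 and 6.04 against 2.00 and 4.67 TPM. The libraries of the lines did not overlap for either gene, and this difference was not tested. Among 8 markers of embryonic fibroblast feeders the lines did not overlap for 3, all higher in B6-1. These were Lox (5.24 and 5.11 TPM against 3.35 and 2.75), Postn (1.05 and 1.21 against 0.700 and 0.681) and Fap, which was at or below 0.124 TPM in every mESC library. The part of feeder RNA was not tested. Against embryonic brain 6 of the 8 were lower and 0 higher.

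Genes that make, process and bind collagen were followed as 4 lists. In embryonic brain 8 of 17 genes of collagen synthesis were higher and 0 lower, led by Serpinh1, the chaperone of procollagen (3.38 ± 0.07), and Fkbp10 (1.95 ± 0.08). Of 13 genes of procollagen processing and crosslinking 6 were higher and 2 lower, with the lysyl oxidases Lox (4.98 ± 0.17) and Loxl2 (4.09 ± 0.14) first. Of 10 collagen receptors 7 were higher, led by Itga2 (3.90 ± 0.14) and Itga11 (2.94 ± 0.13), and 1 was lower, Lair1 (-1.20 ± 0.08). Of 8 tested genes of collagen breakdown 4 were higher, with Mmp9 and Mmp2 at 3.15 ± 0.10 and 3.07 ± 0.11, and 3 lower, with the inhibitor Timp4 at -4.63 ± 0.16.

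The same lists in the adult and mESC comparisons are read beside the shares of all genes called given above. In ARH 4 of 10 receptors were higher, led by Itga11 (2.39 ± 0.25) and Mrc2, an uptake receptor for collagen (1.89 ± 0.26), and so were 4 of 13 processing genes, with Pcolce at 1.63 ± 0.37, and 2 of 17 synthesis genes. In cerebellar cortex the processing genes Tll1 (2.96 ± 0.08) and Bmp1 (2.53 ± 0.06), both of which cut procollagen ends, were higher, as were Loxl2 and Lox, and 0 of 13 were lower. In cortex 0 genes of the 4 lists were higher. In mESC, 0 of 10 receptors were higher and 7 lower, 7 of 8 breakdown genes were lower, and 1, Timp1 (4.61 ± 0.44), was higher. Synthesis genes were mixed, with 3 of 17 higher (Crtap at 2.02 ± 0.17) and 5 lower.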

How the data were processed

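The 70 libraries were strand-specific mRNA-Seq libraries of pooled tissue punches or mESC cultures, sequenced as short single reads. Per the sources, the authors made reads with CASAVA 1.8.2, quantified them with Kallisto on mouse transcripts of GRCm38 and summed transcript values to genes. Whether strand was used in that step is not given in the sources used here. The deposited TPM values per gene and the deposited estimated counts per transcript (expected counts) were used. Gene TPM was used for levels, and correlations were taken on log2(TPM + 0.5) of 18 region means. A marker list entered a correlation as the mean of these log2 values over its genes.

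Estimated counts were summed per gene symbol, with 98.8% of transcripts matched, and rounded to whole numbers. Unmatched transcripts held 0.418 to 0.767% of counts per library. For Col22a1 the matched transcripts miss part of its TPM. Its edgeR calls stand in the counts of members, and its TPM was also tested with limma on log2(TPM + 0.5). There it was called in embryonic brain and mESC, and in no single adult region or broader adult area. Genes were kept by filterByExpr, scaled by TMM and fitted with edgeR 4.0.16 (R 4.3.3) with 24 group means over all 70 libraries, adjusted over 19980 genes by Benjamini-Hochberg. The call limits were 0.05 and 1 (log2). Alternatives were DESeq2 1.42.0, limma 3.58.1 on log2(TPM + 0.5) and log2(TPM + 0.1), no filter, only the groups compared, a block for replicate number and each library left out. The scripts were tested on simulated data. Total counts per library were 9074581 to 22229582, so low members rest on few counts. No replicates were duplicates: the chi-square per gene between replicates was 2.59 or more.

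Members followed the symbol rule. Values are given for up to 4 members per class with the highest group mean and up to 10 called members per comparison with the largest change, with ranges for the rest. Members named beyond that were chosen after their values were seen. The members, classes and marker lists were chosen with earlier results of these data known, so no list is independent evidence. Within-batch values were not computed: the study lists a batch for each sample of a region, but neither that list nor the labels tie a batch to a library.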

Additional observations from a re-analysis of the deposited data

Results flagged for a closer look

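Among sets of 4 libraries, 98 were tested for 1 library far from the rest (21 members), and 10 stood out. Chance gives about 1 in 20.

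CUL4-5 replicate 1 was high for 5 members. Col3a1 stood at 17.2 TPM against a group median of 9.88, Col1a2 at 37.4 against 18.4, Col1a1 at 20.7 against 7.92, Col6a1 at 14.9 against 5.21 and Col4a2 at 15.5 against 9.81. The meningeal fibroblast gene Mgp was at 106 TPM in that library and at 26.0 to 30.2 TPM in the other 3. Without it, CUL4-5 no longer passed the fold limit against the other regions for Col1a1 (0.65), Col1a2 (0.67) or Col3a1 (0.66), and Col23a1 and Col4a6 were lost too. The part of meningeal RNA was not tested.

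NTS replicate 1 was high for Col8a2, at 19.4 TPM against a median of 0.858, and for Col9a3, at 57.6 against 13.9 TPM. CENT2 replicate 1 was high for Col11a1, at 7.80 against 1.90 TPM, and for Col16a1, at 10.2 against 5.69 TPM. FL replicate 4 was low for Col26a1, at 2.33 against 4.37 TPM.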

How the results depend on the processing

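Of 399 member calls, 390 were the same with DESeq2, 392 with the filter off, 322 with limma on log2(TPM + 0.1) and 255 with limma on log2(TPM + 0.5), a scale that understates changes of low genes. Only the groups compared gave 392 of 398. With log2(TPM + 0.5), the members called higher were 91 over single regions, 2 in cortex, 2 in hypothalamus, 1 in hindbrain nuclei and 0 in mESC, and those called lower were 76 over single regions, 5 in cerebellar cortex, 0 in hypothalamus, 0 in hindbrain nuclei and 2 in embryonic brain. With log2(TPM + 0.1) 2 were higher in mESC, 1 lower in hypothalamus and 2 lower in hindbrain nuclei. The direction turned for Col6a5 in cerebellar cortex (0.017 with log2(TPM + 0.5)) and Col17a1 in ARH (0.067 with log2(TPM + 0.1)). Within cerebellar cortex Col6a5 had 242 to 737 counts per library in CENT2, 0 to 2 in CUL4-5, 0 to 7 in UVU and 1 to 19 in FL. The cause was not tested.

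Leaving out each library in turn kept 27626 of 27930 calls and gave 43 to 44 members that varied over regions. That total counts each call for every library, also libraries outside its comparison. The trend of the dispersion (modelled spread of counts) and the unadjusted p limit were held from the full fit. The call of Col6a6 in ACA was lost in 39 settings, Col11a2 in cortex in 33, Col6a1 in ARH in 28 and Col24a1 in VTA in 23. In ARH against the other nuclei 0 to 1 were lower, the 1 without ARH replicate 2 or 3. Without NTS replicate 1 the NTS differences of Col8a1 and Col8a2 turned to -0.85 and -0.90. Leaving out VTA replicate 1, H replicate 1 and NTS replicate 1 together, chosen after seeing the data, gave -0.83 and -0.89 and kept 384 of 399 calls.

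Same-numbered libraries had a median correlation of deviations of 0.0127 (436 pairs), against -0.0057 for other numbers (1095 pairs). Of the same-numbered pairs 9.17% were over 0.1, against 4.66% of the others. The correlations ran from -0.196 to 0.318 for same-numbered pairs and from -0.303 to 0.227 for the others. Whether the replicate numbers pair the samples was not tested. With the replicate block 392 of 399 calls were the same, with 15 members higher in ARH, 26 higher and 5 lower in embryonic brain and 137 higher and 120 lower over single regions. Low members such as Col10a1 are limited by depth.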
